A study of Mus musculus with 31 samples.

Results

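The untreated baseline of a mouse breast tumour study was described here as 1 contrast, 4T1 tumours against MT tumours, over all genes. The libraries were chosen by their titles, the 4 vehicle libraries titled 4T1 and the 4 titled MT, which makes 8 of the 31 libraries of the series. Both models are breast tumours placed in the mammary gland of syngeneic mice, and both untreated groups received saline and PBS as vehicle. 4T1 is a transplantable mouse mammary carcinoma line of BALB/c origin, widely used for its spontaneous metastasis. The other 6 groups of the series received phenformin, a biguanide drug that blocks mitochondrial complex I, poly I:C, a synthetic double-stranded RNA sensed by Toll-like receptor 3, or both, and are used below only to see whether the difference between the models was also present there. Genotype is given as wild type in all groups, and the age and sex of the mice and the meaning of MT are not given in the sources used here. The design text places MT tumours in FVB mice and 4T1 tumours in BALB/c mice, with each model tagged as 1 cell line (MT4788 or 4T1-537), so tumour line and host strain cannot be told apart in any value below.

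In the characteristics of each library, strain and cell line are given as those of the other model, and models are named here by title. H2-Ea-ps is the alpha chain gene of the MHC class II E molecule, which BALB/c mice make and mice of the FVB haplotype do not, and it is annotated as a pseudogene because the reference strain does not make it either (ENSMUSG00000036322, GRCm38 chromosome 17, 34341959 to 34344645, minus strand). It measured 492, 650.1, 889 and 714 CPM in 4T1 and 5.98, 5.48, 8.08 and 18.1 CPM in MT, where CPM is a count divided by its library's TMM-scaled size, in the usual unit. All 4T1-titled libraries were far above all MT-titled libraries, and over all 31 libraries the 15 titled 4T1 ran from 222 to 1011 CPM and the 16 titled MT from 5.42 to 50.9 CPM. The levels go with the strains that the design text gives to the titles, and against the characteristics. Nothing in the labels says that the replicates of a group came from separate mice, so p-values measure the spread between these libraries.

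The 4 4T1 libraries held 16546393 to 19177122 counts each and the 4 MT libraries 12160110 to 19295547. MT replicate 4 stood apart. Over log2 CPM of all genes tested it correlated with MT replicates 1 to 3 at r = 0.905 to 0.912, against 0.986 among those 3 and 0.979 to 0.99 among the 4T1 libraries. The first principal component, with 74.2% of the variance, separated the models, and the second, with 16% of it, separated MT replicate 4 from the other 7 libraries. The basal keratin gene Krt5 measured 30.4, 21.7, 23.8 and 2220 CPM in MT replicates 1 to 4, and Sox10, a transcription factor of neural crest and mammary progenitor cells, 177, 220.5, 175 and 1.31 CPM. Lymphocyte genes were also highest in MT replicate 4, as with Igkc, the kappa light chain constant region of antibodies, at 3.10, 17.1, 12.5 and 310.3 CPM in MT and 53.9, 2.69, 8.73 and 107 CPM in 4T1, where replicate 4 was the highest. Counts over all genes, and the list counts that changed without MT replicate 4, are therefore also given without it.

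Many expressed genes differed between 4T1 and MT tumours. In edgeR's quasi-likelihood test with Benjamini-Hochberg adjustment, 8884 of 16754 genes tested were called at an adjusted p under 0.05 (53.0%), of which 4271 were higher in 4T1 (25.5%) and 4613 higher in MT (27.5%). A stricter test, that the difference is larger than 2-fold, called 2400 genes (14.3%), 1302 higher in 4T1 (7.77%) and 1098 higher in MT (6.55%). The median log2 fold change of all genes, 4T1 minus MT, was -0.045. Without MT replicate 4, 11262 of 17071 genes were called (66.0%), 5700 higher in 4T1 (33.4%) and 5562 higher in MT (32.6%), with a median of 0.01 over all genes, and 3896 were past 2-fold (22.8%), 2323 higher in 4T1 (13.6%) and 1573 higher in MT (9.21%). Without any 1 of the other 7 libraries, 7488 to 8391 genes were called. The counts of the lists below are to be read against these shares, since about 1 gene in 4 was called in each direction. The lists and members were chosen with earlier results of these data known, and the part of that choice in the list counts was not tested.

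**Figure D1:**
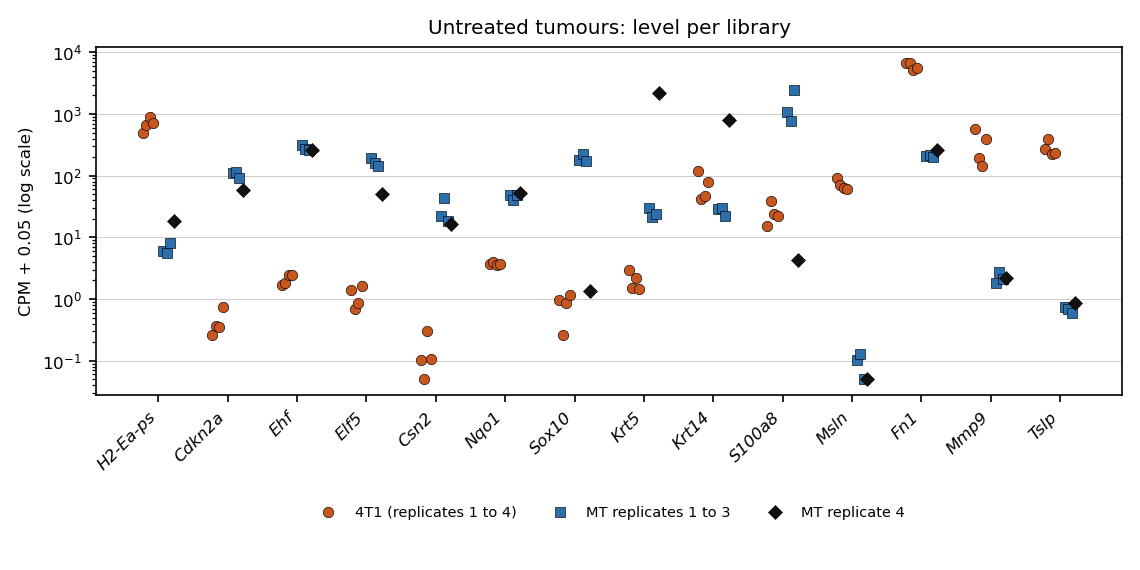
Levels of 14 genes in each of the 8 untreated libraries, in CPM plus 0.05 on a log axis, as 1 point per library (4T1 replicates 1 to 4 as circles, MT replicates 1 to 3 as squares, MT replicate 4 as diamonds). Msln, Fn1, Mmp9 and Tslp lie higher in every 4T1 library, Cdkn2a, Ehf, Elf5, Csn2 and Nqo1 higher in every MT library, and MT replicate 4 lies apart from the other MT libraries for Sox10, Krt5, Krt14 and S100a8.

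The genes with the largest differences were near 0 in 1 model and plainly present in the other. Msln encodes mesothelin, a surface protein of mesothelium and several carcinomas (ENSMUSG00000063011, chromosome 17, 25748613 to 25754378, minus strand), and measured 90.2, 71.4, 62.5 and 61.4 CPM in 4T1 and 0.0543, 0.0806, 0 and 0 CPM in MT. Its 4T1 counts summed to 5355 and its MT counts to 2, a ratio of 2072 with a 95% counting interval of 573 to 17110 (log2 fold change 10.73 ± 0.37 SE, adjusted p = 1.05e-06). Tmprss6, a membrane serine protease that lowers hepcidin signalling, measured 55.9 to 88.7 CPM in 4T1 and at most 0.135 CPM in MT, and Tmprss11e, another membrane serine protease, 165 to 256 against at most 0.411 CPM. Bone sialoprotein (Ibsp) measured 38.5 to 145 CPM in 4T1 and at most 0.272 CPM in MT. Tslp, an epithelial cytokine that acts on dendritic cells, measured 269, 389, 223 and 237 CPM in 4T1 and 0.706, 0.645, 0.539 and 0.821 CPM in MT (log2 fold change 8.68 ± 0.27 SE, adjusted p = 1.05e-06). The other genes of the top 10 in this direction were Eya1, Uox, Ccbe1, Masp1 and Gpa33, with log2 fold changes of 8.48, 8.30, 7.68, 7.64 and 7.52. None of the 10 overlapped between the models, as the rule for naming them required, and over all genes 48.8% did not overlap, 24.7% higher in 4T1 and 24.1% higher in MT.

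In the other direction, Adcy8, a calcium-stimulated adenylyl cyclase (ENSMUSG00000022376, chromosome 15, 64697084 to 64922296, minus strand), measured 0, 0.0528, 0 and 0 CPM in 4T1 and 39.4, 46.9, 34.4 and 6.65 CPM in MT. Only 1 count was seen in all 4T1 libraries against 1898 in MT, a ratio of 2453 with a counting interval of 440 to 96943 (log2 fold change -10.57 ± 0.95 SE, adjusted p = 5.24e-05). The neutral amino acid transporter Slc6a15 measured 0.104, 0.0528, 0.205 and 0.176 CPM in 4T1 and 154, 215, 159 and 3.70 CPM in MT. Here and for Col9a1, a cartilage collagen chain at 659.9, 469, 458 and 34.9 CPM in MT and at most 0.770 CPM in 4T1, MT replicate 4 was the lowest MT library. In contrast, MT replicate 4 held most of the signal of the cartilage proteoglycan genes Acan, at 10.6, 7.49, 6.47 and 93.96 CPM in MT, and Hapln1, at 5.60, 3.47, 3.03 and 58.6 CPM, and of the Bmp and Wnt antagonist gene Sostdc1, at 2.66, 3.55, 2.16 and 165 CPM. Without that library the log2 fold changes of these 3 were -7.91, -7.61 and -4.28, against -9.75, -9.72 and -8.24 with it. Krt79, Bhlha15, Slc30a2 and Csn1s1 completed the 10, with log2 fold changes of -8.94, -8.84, -8.63 and -9.33. Slc30a2 carries zinc into milk, Csn1s1 is a casein, and Bhlha15 is a transcription factor of secretory cells.

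The mammary epithelium has an inner luminal layer, whose alveolar cells make milk under Elf5 and prolactin, and an outer basal layer with Krt5, Krt14 and Trp63. Epithelial tumours can lose such programmes and gain mesenchymal genes, among them fibronectin and vimentin. Milk and alveolar genes were higher in MT tumours. Of 10 milk and secretory genes tested, 8 were higher in MT and 0 in 4T1 (median log2 fold change -3.62), and without MT replicate 4 all 11 then tested were higher in MT. The beta-casein gene Csn2 measured 0.0518, 0, 0.257 and 0.0586 CPM in 4T1 and 22.4, 43.3, 18.6 and 16.3 CPM in MT (log2 fold change -7.96 ± 0.65 SE, adjusted p = 3.37e-05), so that its lowest MT library was above every 4T1 library. The kappa-casein gene Csn3 measured 1792, 1586, 1864 and 21.4 CPM in MT and 3.33 to 6.42 CPM in 4T1. Elf5, the transcription factor of alveolar cells (ENSMUSG00000027186, chromosome 2, 103411688 to 103450989, plus strand), measured 1.35, 0.634, 0.822 and 1.58 CPM in 4T1 and 190.1, 162, 144 and 50.1 CPM in MT (log2 fold change -6.96 ± 0.51 SE, adjusted p = 2.03e-05), and the related factor Ehf 1.66, 1.74, 2.36 and 2.40 CPM in 4T1 and 316, 274, 259 and 265 CPM in MT (log2 fold change -7.09 ± 0.17 SE, adjusted p = 4.13e-07). The prolactin receptor gene Prlr was also higher in MT, at 77.2 to 181 against 6.37 to 9.86 CPM.

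The 20 luminal genes tested did not move one way: 6 were higher in 4T1 and 8 in MT, with a median of -0.44 that became 0.35 without MT replicate 4 (9 and 8 of 21). Of the luminal keratin genes, Krt8 and Krt18 were higher in 4T1, and Krt7 and Krt19 did not pass the test. Krt8 measured 713, 517, 494 and 714 CPM in 4T1 and 279, 260.2, 263 and 407 CPM in MT. Krt18 measured 895 to 1308 against 298 to 668 CPM (log2 fold changes of Krt8 and Krt18 1.01 and 1.37, adjusted p = 0.0026 and 0.00232). Esr1, the oestrogen receptor alpha gene, was higher in 4T1 as well, at 32.8, 24.4, 31.3 and 28.97 CPM in 4T1 and 4.67, 3.14, 3.10 and 11.4 CPM in MT (log2 fold change 2.40 ± 0.41 SE, adjusted p = 0.00135). Epcam and the E-cadherin gene Cdh1 did not pass the test. Cdh1 measured 278, 142, 176 and 224 CPM in 4T1 and 311, 273, 176 and 455 CPM in MT (log2 fold change -0.57 ± 0.30 SE, adjusted p = 0.142), and it passed only without MT replicate 3 (log2 fold change -0.75, adjusted p = 0.046).

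Basal genes depended on MT replicate 4. Of 18 tested, 9 were higher in MT and 2 in 4T1 (median -1.63), against 6 and 5 without that library (median -0.55). The count higher in MT was also 5 without 4T1 replicate 2 and without 4T1 replicate 3, and 4 in DESeq2. Krt5 (ENSMUSG00000061527, chromosome 15, 101707070 to 101712898, minus strand) measured 2.95, 1.48, 2.11 and 1.41 CPM in 4T1, below every MT library (log2 fold change -8.16 ± 1.95 SE, adjusted p = 0.00729, and -3.65 without MT replicate 4, adjusted p = 5.39e-07). Krt14 measured 119, 41.5, 46.8 and 80.3 CPM in 4T1 and 28.8, 29.4, 21.9 and 804 CPM in MT. With all libraries it did not pass the test (log2 fold change -1.62 ± 1.16 SE, adjusted p = 0.266), and without MT replicate 4 it was higher in 4T1 (log2 fold change 1.44, adjusted p = 0.00317). Krt5 and Krt14 usually pair in basal cells, and they lay in opposite directions in the 7 remaining libraries. Of 13 neural crest-like genes, 8 were higher in MT, among them Sox10, Sox8, Sox9, Mia and Cdh19, and 3 in 4T1 (Tfap2a, Ngfr and Ednrb), against 8 and 4 without MT replicate 4. Sox10 measured 0.933, 0.211, 0.822 and 1.11 CPM in 4T1, close to its level in MT replicate 4 (log2 fold change -7.54 ± 1.32 SE, adjusted p = 0.00153). Sox8 and Mia were higher in every MT library, replicate 4 included, at 9.28 to 22.3 and 10.5 to 22.6 CPM against at most 0.235 and 0.155 CPM in 4T1.

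Mesenchymal and matrix genes were higher in 4T1. Of 19 genes of epithelial-mesenchymal transition, 13 were higher in 4T1 and 2 (Snai2 and Tgfb2) in MT, with a median of 1.495 (14 and 2 without MT replicate 4). In bulk tissue these genes cannot be assigned to tumour cells or to stroma. Fibroblast and matrix genes were also higher in 4T1, for 19 of 22 tested, and 0 were higher in MT. Fn1, which encodes the matrix protein fibronectin (ENSMUSG00000026193, chromosome 1, 71585520 to 71653200, minus strand), measured 6624, 6740, 5119 and 5544 CPM in 4T1 and 211, 217, 197 and 263 CPM in MT (log2 fold change 4.76 ± 0.17 SE, adjusted p = 1.05e-06). The vimentin gene Vim measured 2848, 1748, 1841 and 2133 CPM in 4T1 and 371, 383, 485 and 1521 CPM in MT, where MT replicate 4 lay between the other MT libraries and 4T1 (log2 fold change 1.63 ± 0.47 SE, adjusted p = 0.017, and 2.38 without MT replicate 4). Zeb1, Zeb2, Twist2, Prrx1, Axl and Tgfbr2 were also higher in 4T1, whereas Snai1 and Twist1 did not pass the test. Snai2 rested on MT replicate 4, at 111 CPM there against 2.74 to 4.13 CPM in MT replicates 1 to 3 and 2.11 to 2.95 CPM in 4T1.

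YAP is a transcriptional coactivator that responds to cell shape and stiffness. In a list of YAP targets and related genes such as Tead1 and Tead4, 9 of 14 were higher in 4T1. In MT 2 were higher (Birc5 and Tead4), and the median was 0.91 (12 and 2 without MT replicate 4). Ankrd1, a classic target, measured 182, 135, 99.9 and 148 CPM in 4T1 and 1.25, 1.45, 0.741 and 1.15 CPM in MT (log2 fold change 6.94 ± 0.27 SE, adjusted p = 1.35e-06). Msln belongs to this list and to the top 10 above, so it is counted in both, and the list was chosen with earlier results known. Among tumour suppressor and Trp53 target genes, 8 of 20 were higher in MT and 2 in 4T1 (8 and 4 without MT replicate 4). Cdkn2a, the locus of p16 and p19Arf (ENSMUSG00000044303, chromosome 4, 89274471 to 89294653, minus strand), was nearly silent in 4T1, at 0.207, 0.317, 0.308 and 0.704 CPM in 4T1 and 109, 116, 89.9 and 57.9 CPM in MT (log2 fold change -7.92 ± 0.38 SE, adjusted p = 2.73e-06), and over all 31 libraries no 4T1 library exceeded 0.886 CPM and no MT library fell under 12.9 CPM. The neighbouring Cdkn2b measured 1.27 to 2.29 CPM in 4T1 and 9.67 to 15.9 CPM in MT. Trp53, the p53 gene, measured 41.5, 39.9, 38.4 and 47.1 CPM in 4T1 and 115, 139, 110.2 and 114 CPM in MT (log2 fold change -1.52 ± 0.11 SE, adjusted p = 1.88e-05). Of the targets, Bax and Bbc3 were higher in MT, and Cdkn1a and Mdm2 did not pass the test.

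Cell division genes were higher in MT. Of 20 genes of G2 and M phase, 17 were higher in MT and 0 in 4T1 (median -0.69), and of 20 S phase genes 9 and 0 (median -0.41, and 10 and 1 without MT replicate 4). The mitotic kinase gene Aurka measured 39.2, 29.2, 28.97 and 40.2 CPM in 4T1 and 172, 219, 192 and 69.4 CPM in MT (log2 fold change -2.25 ± 0.33 SE, adjusted p = 0.000585). Ube2c, a ubiquitin-conjugating enzyme of mitotic exit, measured 72.4, 46.1, 44.5 and 69.4 CPM in 4T1 and 249, 289.9, 249.8 and 132 CPM in MT, and the ribonucleotide reductase subunit gene Rrm2 67.95 to 103 against 149 to 283 CPM. For Aurka, Ube2c and Rrm2, MT replicate 4 was the MT library closest to 4T1. The Mcm helicase genes of replication origins did not pass the test.

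**Figure D2:**
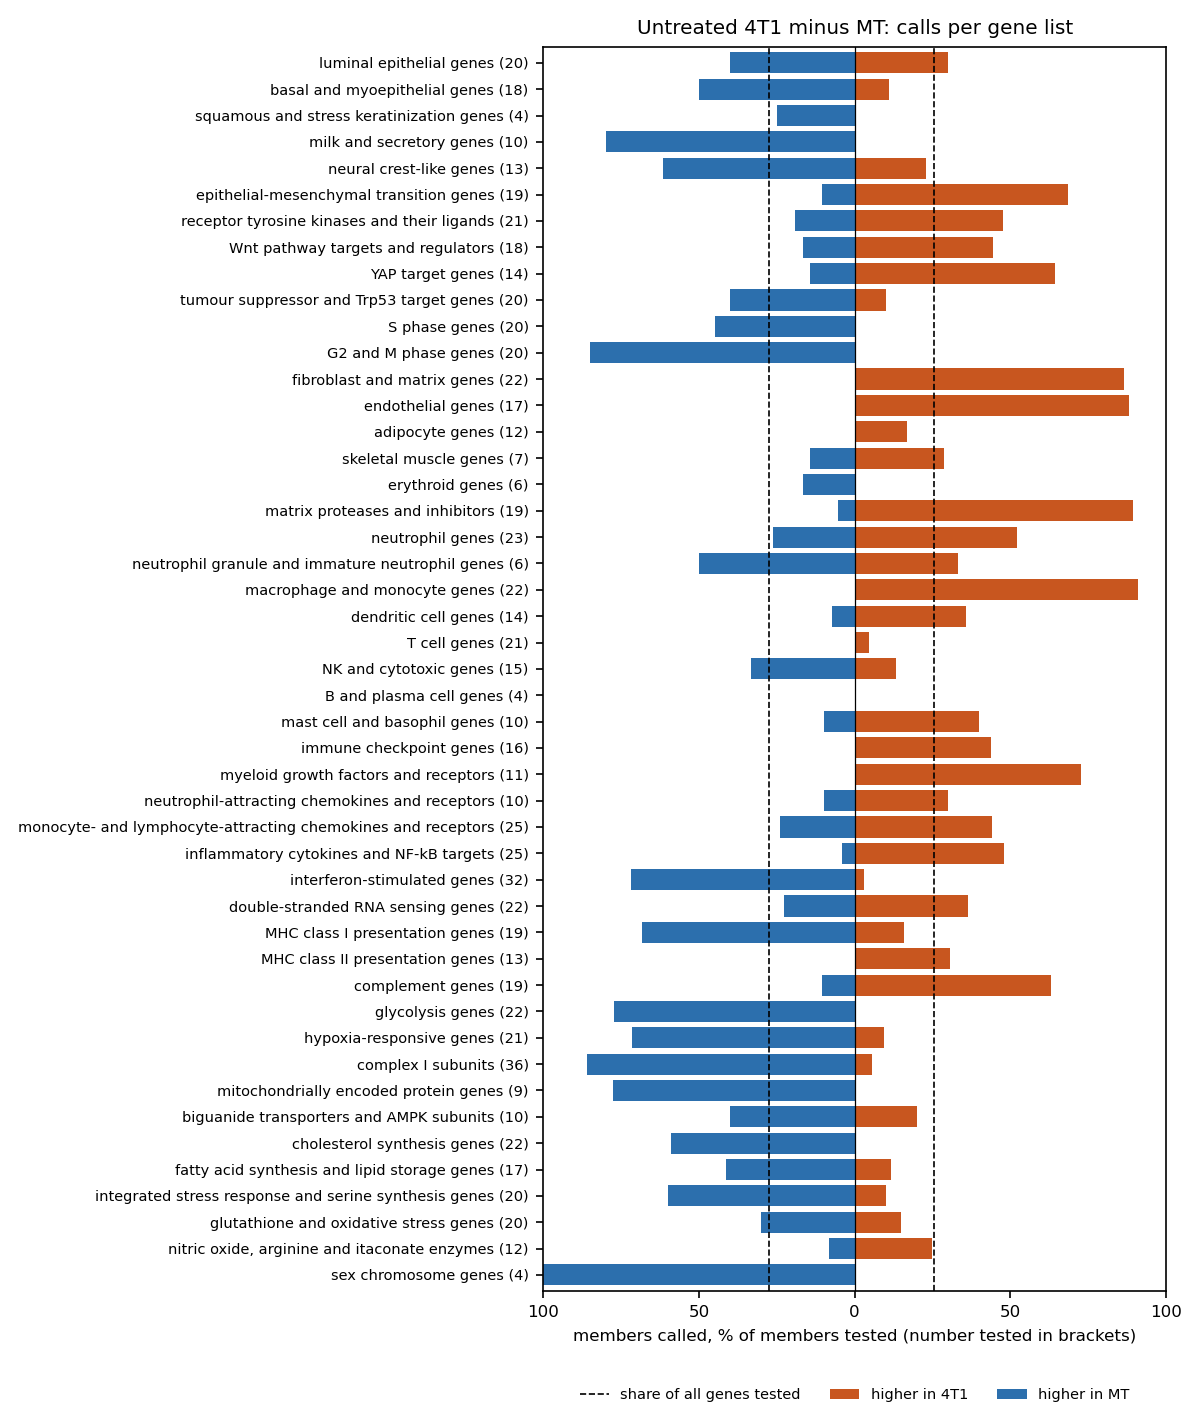
Share of tested members called in each direction (adjusted p under 0.05) for the gene lists, in percent of the members tested, whose number is in brackets, with bars to the right for higher in 4T1 and to the left for higher in MT. Dashed lines mark the shares over all genes tested, 25.5% and 27.5%. Fibroblast, endothelial, macrophage and matrix protease lists extend past the right line, and milk, mitosis, interferon, glycolysis and complex I lists past the left one. The lists and members were chosen with earlier results of these data known.

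Genes of the supporting tissue were higher in 4T1. In bulk tissue, fewer cells of a type and less RNA per cell cannot be told apart, here and in all cell type lists below. Of 22 fibroblast and matrix genes, 19 were higher in 4T1 and 0 in MT, with a median of 1.83 (21 and 0 without MT replicate 4). Col3a1, a fibrillar collagen chain (ENSMUSG00000026043, chromosome 1, 45311538 to 45349706, plus strand), measured 1403, 1162, 1871 and 1101 CPM in 4T1 and 259, 225, 183 and 195 CPM in MT (log2 fold change 2.68 ± 0.20 SE, adjusted p = 2.39e-05), and Pdgfra, the PDGF receptor of fibroblasts, 88.4, 106, 125 and 66.3 CPM in 4T1 and 15.2, 14.4, 11.1 and 17.1 CPM in MT (log2 fold change 2.74 ± 0.22 SE, adjusted p = 3.01e-05). Dcn, Fbln1 and Dpt did not pass the test. Of 17 endothelial genes, 15 were higher in 4T1 and 0 in MT (median 1.26, and 16 and 0 without MT replicate 4). Eng, an endothelial coreceptor of the TGF-beta family, measured 132, 121, 140.0 and 131 CPM in 4T1 and 29.5, 16.6, 23.98 and 18.97 CPM in MT (log2 fold change 2.55 ± 0.18 SE, adjusted p = 1.57e-05), and VE-cadherin (Cdh5) 90.4 to 138 against 23.4 to 37 CPM. The vessel genes Flt1 and Vwf did not pass.

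Matrix proteases and their inhibitors were higher in 4T1 for 17 of 19 members (median 2.11), with Adamts1 alone higher in MT. Mmp9, which cleaves gelatin and basement membrane collagen (ENSMUSG00000017737, chromosome 2, 164940780 to 164955850, plus strand), measured 577, 192, 143 and 389 CPM in 4T1 and 1.74, 2.66, 2.09 and 2.14 CPM in MT (log2 fold change 7.25 ± 0.53 SE, adjusted p = 2.03e-05). The 4T1 libraries varied widely among themselves for Mmp9, and all of them were far above every MT library. Mmp3 and Mmp13 measured 50.3 to 117 and 90.1 to 252 CPM in 4T1 against 2.96 to 7.82 and 15.97 to 45.8 CPM in MT. Mmp14, the membrane-bound collagenase, measured 501 to 606 against 112 to 166 CPM (log2 fold change 1.93 ± 0.14 SE, adjusted p = 1.99e-05).

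Genes of fat, muscle and blood varied between libraries of the same model. Of 12 adipocyte genes, 2 were called, Pnpla2 and Cidec, both higher in 4T1, and 9 were called without MT replicate 4, all higher in 4T1. The call of Pnpla2 was lost without 4T1 replicate 3 or MT replicate 2 (adjusted p = 0.0584 and 0.0529). That of Cidec was lost without any library except 4T1 replicate 1 and MT replicate 4 (adjusted p 0.0844 to 0.118) and in the fit of all 31 libraries (adjusted p = 0.102). Adipoq, an adipocyte hormone gene, measured 1.71, 17.1, 19.4 and 11.6 CPM in 4T1 and 2.72, 0.484, 3.64 and 11.8 CPM in MT, and the groups overlapped. Of 7 skeletal muscle genes tested, Tnnt3 and Tnni2 were higher in 4T1 and Mb in MT, and without MT replicate 4 these counts were 4 and 2 of 8 tested. Mb, myoglobin, lost its call in the fit of all 31 libraries (adjusted p = 0.124). The muscle actin gene Acta1 stayed under 1 CPM in all 8 libraries, at 0.466, 0.740, 0.462 and 0.704 CPM in 4T1 and 0.0543, 0.725, 0.876 and 0.493 CPM in MT. Tnni2 was called with all libraries and without MT replicate 4, and lost its call without any other library (adjusted p 0.0556 to 0.0829). Among 6 erythroid genes, only Car2, a carbonic anhydrase that other cells also express, was called, higher in MT, and the alpha-globin gene Hba-a1 measured 66.6 to 116 CPM in 4T1 and 37.2 to 171 CPM in MT.

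Tumours recruit monocytes that become macrophages under Csf1 signalling through Csf1r, and neutrophils under Csf3 and Cxcr2 ligands. Macrophage genes had the largest share of called members among the leukocyte lists. Of 22 tested, 20 were higher in 4T1 and 0 in MT, with a median of 1.93, and 17 were past 2-fold (21 and 0 called without MT replicate 4). Csf1r, the receptor for Csf1 (ENSMUSG00000024621), measured 237, 284, 305 and 215 CPM in 4T1 and 52.2, 65.1, 57 and 51.8 CPM in MT (log2 fold change 2.20 ± 0.14 SE, adjusted p = 1.12e-05). Cx3cr1, the fractalkine receptor of monocytes and resident macrophages (ENSMUSG00000052336, chromosome 9, 119901616 to 120069879, minus strand), measured 124, 176, 174 and 131 CPM in 4T1 and 15.3, 10.6, 13.9 and 10.2 CPM in MT (log2 fold change 3.59 ± 0.19 SE, adjusted p = 5.33e-06). For both genes every 4T1 library was far above every MT library. Adgre1, which encodes the F4/80 antigen, measured 46.9 to 82.9 CPM in 4T1 and 10.02 to 21.2 CPM in MT, and the complement subunit gene C1qa 327 to 467 against 106 to 139 CPM. Ly6c2, a marker of inflammatory monocytes, and Timd4 did not pass the test.

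The growth factors of these cells differed in the same direction. Of 11 myeloid growth factor and receptor genes, 8 were higher in 4T1 and 0 in MT (median 1.73, and 9 and 0 without MT replicate 4). Csf1 measured 235, 224, 213 and 146 CPM in 4T1 and 49.3, 53.7, 38 and 48.5 CPM in MT (log2 fold change 2.11 ± 0.18 SE, adjusted p = 3.63e-05), Csf3, the neutrophil growth factor G-CSF gene, 13.1, 17.2, 8.68 and 17.4 CPM in 4T1 and 4.35, 8.22, 4.11 and 7.72 CPM in MT (log2 fold change 1.21 ± 0.32 SE, adjusted p = 0.011), and Csf2, the GM-CSF gene, 0.762 to 1.64 against 0.135 to 0.246 CPM (log2 fold change 2.43 ± 0.39 SE, adjusted p = 0.000966). The monocyte chemokine receptor gene Ccr2 was higher in 4T1, at 133 to 306 CPM against 23.8 to 41.2 CPM. Of 25 monocyte- and lymphocyte-attracting chemokine and receptor genes, 11 were higher in 4T1 and 6 in MT (13 and 6 without MT replicate 4). Those higher in MT were Ccl4, Ccl20, Cx3cl1 and the 3 ligands of Cxcr3, Cxcl9, Cxcl10 and Cxcl11, while Cxcr3 itself was higher in 4T1, at 7.29 to 15.7 CPM against 1.05 to 5.42 CPM.

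Neutrophil genes split. Of 23 tested, 12 were higher in 4T1 and 6 in MT, with a median of 1.02 (15 and 6 without MT replicate 4). Ly6g, the antigen that defines mouse neutrophils, was at or near 0 in all 8 libraries, at most 0.117 CPM, and was not tested. The receptor genes Csf3r, Cxcr2, Fpr1, Fpr2 and Trem1 were higher in 4T1, Csf3r at 14.7 to 25.7 CPM against 2.87 to 6.94 CPM and Cxcr2 at 5.54, 9.67, 6.88 and 5.39 CPM in 4T1 and 2.77, 3.14, 2.90 and 4.27 CPM in MT (log2 fold change 1.07 ± 0.26 SE, adjusted p = 0.0072). S100a8 and S100a9 encode the subunits of calprotectin and are usually made together by neutrophils. S100a8 (ENSMUSG00000056054, chromosome 3, 90668978 to 90670035, plus strand) measured 15.03, 39.5, 23.6 and 21.9 CPM in 4T1 and 1085, 782, 2451 and 4.19 CPM in MT (log2 fold change -5.43 ± 1.34 SE, adjusted p = 0.00852), very high in MT replicates 1 to 3 and lowest of all in MT replicate 4. S100a9 lay the other way, at 28.9, 69.8, 41.4 and 39.3 CPM in 4T1 and 10.1, 9.35, 17.4 and 4.68 CPM in MT, and was higher in every 4T1 library (log2 fold change 2.10 ± 0.40 SE, adjusted p = 0.00244). The other 5 genes higher in MT were Acod1, G0s2, Slpi, Lcn2 and Hcar2. Lcn2 and Slpi, which mammary epithelium also makes, measured 5930, 6254, 6409 and 707 CPM and 1279, 1178, 1661 and 84.2 CPM in MT replicates 1 to 4, against 287 to 456 and 133 to 171 CPM in 4T1.

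The list of neutrophil granule and immature neutrophil genes gave a similar division, with Ngp and Lyz2 higher in 4T1 and Camp, Ltf and Prtn3 higher in MT. Ltf is also counted in the milk and secretory list above, so its call need not mark neutrophils. Prtn3, proteinase 3, measured 27.98, 28.7, 33.01 and 1.56 CPM in MT and 0.570, 2.80, 1.44 and 1.47 CPM in 4T1, and Camp 40.6, 25.1, 57.5 and 0.493 CPM in MT and 0.155 to 1.82 CPM in 4T1. The granule genes Elane, Mpo, Ctsg and Cebpe did not pass the filter on low counts. Of 10 chemokine and receptor genes that act on neutrophils, Cxcl2, Pf4 and Cxcr2 were higher in 4T1 and Cxcr4 in MT (5 and 1 without MT replicate 4). Cxcl1 measured 10.6, 14.7, 9.30 and 6.68 CPM in 4T1 and 15.5, 12.5, 19.3 and 7.23 CPM in MT and did not pass the test (adjusted p = 0.329). Cxcl5 measured 5.13, 5.71, 4.93 and 2.40 CPM in 4T1 and 3.64, 2.58, 3.71 and 8.62 CPM in MT and did not pass either (adjusted p = 0.966). The calls of Cxcr2 and Cxcr4 were lost in the fit of all 31 libraries (adjusted p = 0.107 and 0.11).

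Inflammatory cytokine and NF-kB target genes were higher in 4T1 for 12 of 25 and in MT for 1, Tnf (median 1.03, and 19 and 1 without MT replicate 4). The interleukin-1 beta gene Il1b (ENSMUSG00000027398, chromosome 2, 129364570 to 129371139, minus strand) measured 68.04, 81.5, 70.2 and 56.1 CPM in 4T1 and 8.31, 11.04, 11.5 and 8.54 CPM in MT (log2 fold change 2.81 ± 0.17 SE, adjusted p = 7.58e-06). Il23a, the p19 subunit of interleukin 23, measured 26.1 to 38.2 against 4.35 to 8.94 CPM (log2 fold change 2.17 ± 0.23 SE, adjusted p = 0.000113), and Il1a, Il6, Il11, Lif and Osm were also higher in 4T1. Tnf measured 0.985 to 1.70 CPM in 4T1 and 2.10 to 6.32 CPM in MT. Nos2, the inducible nitric oxide synthase gene, did not pass, at 34.98, 17.02, 17.2 and 15.9 CPM in 4T1 and 14.2, 11.8, 19.1 and 16.1 CPM in MT (adjusted p = 0.185), whereas Arg1, arginase 1, was higher in 4T1 at 404, 420.2, 301 and 197 CPM in 4T1 and 60.04, 71.3, 57.7 and 135 CPM in MT (log2 fold change 2.03 ± 0.34 SE, adjusted p = 0.00117).

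Lymphocyte genes gave few calls. Of 21 T cell genes, Thy1 was higher in 4T1 and 0 were higher in MT, with a median of -0.87 that was 0.46 without MT replicate 4 (2 and 0 called). Cd3e, a subunit of the T cell receptor complex, measured 5.08, 8.88, 8.37 and 28.1 CPM in 4T1 and 7.44, 8.78, 13.2 and 65.6 CPM in MT, so that replicate 4 was the highest library of both models. Thy1, which fibroblasts also make, measured 98.05, 67.5, 97.7 and 114 CPM in 4T1 and 19.9, 18.8, 27.4 and 77.8 CPM in MT and lost its call without any library except MT replicate 4 and 4T1 replicate 2 (adjusted p 0.0587 to 0.0686). Lck, a kinase of T cell receptor signalling, measured 7.10, 9.88, 11.8 and 36.2 CPM in 4T1 and 18.04, 19.98, 23.98 and 97.4 CPM in MT (log2 fold change -1.29 ± 0.69 SE, adjusted p = 0.146), and without 4T1 replicate 4 it was higher in MT (log2 fold change -2.05, adjusted p = 0.0355). None of the 4 B and plasma cell genes tested passed in edgeR (0 called at an adjusted p under 0.05 and 0 at an unadjusted p under 0.05), 0 passed in DESeq2, and 1 was higher in 4T1 with limma voom. Their median log2 fold change was -1.19 with all libraries, 0.94 with limma voom and 2.06 without MT replicate 4, where 2 of the 4 were higher in 4T1. Cd79b, a subunit of the B cell receptor, measured 1.45, 0.476, 1.23 and 20.9 CPM in 4T1 and 0.163, 0.322, 0.741 and 62.01 CPM in MT, and without MT replicate 4 it was higher in 4T1 (log2 fold change 3.89, adjusted p = 0.0304).

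Of 15 NK and cytotoxic genes, 5 were higher in MT (Ncr1, Gzma, Gzmb, Ifng and Xcl1) and 2 in 4T1 (Eomes and Gzmc). Without MT replicate 4 the counts were 5 and 3 of 16 tested, and in the fit of all 31 libraries 3 and 3. The interferon gamma gene Ifng measured 1.61, 1.64, 2.36 and 1.41 CPM in 4T1 and 5.33, 4.43, 7.01 and 5.17 CPM in MT (log2 fold change -1.64 ± 0.24 SE, adjusted p = 0.000654). Gzmc, granzyme C, measured 6.57 to 11.7 against 1.05 to 2.55 CPM. The 14 dendritic cell genes gave 5 calls higher in 4T1 and 1 in MT (8 and 1 without MT replicate 4), with Itgax, the CD11c gene, at 34.9 to 49.7 against 21.5 to 25.6 CPM, and Flt3 and Xcr1 not passing. Of 16 immune checkpoint genes, 7 were higher in 4T1 and 0 in MT (9 and 0 without MT replicate 4). Nt5e and Entpd1, which encode CD73 and CD39 and together turn ATP into adenosine, were both higher in 4T1, Nt5e at 561, 757, 497 and 389.6 CPM in 4T1 and 36.8, 36.5, 36.99 and 145 CPM in MT (log2 fold change 3.11 ± 0.52 SE, adjusted p = 0.00116) and Entpd1 at 54.8 to 83.9 against 18.3 to 30.3 CPM. Cd274, the PD-L1 gene, did not pass, at 39.1, 55.9, 49.6 and 38.4 CPM in 4T1 and 39.9, 30.9, 41.5 and 40.7 CPM in MT (log2 fold change 0.26 ± 0.16 SE, adjusted p = 0.194).

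**Figure D3:**
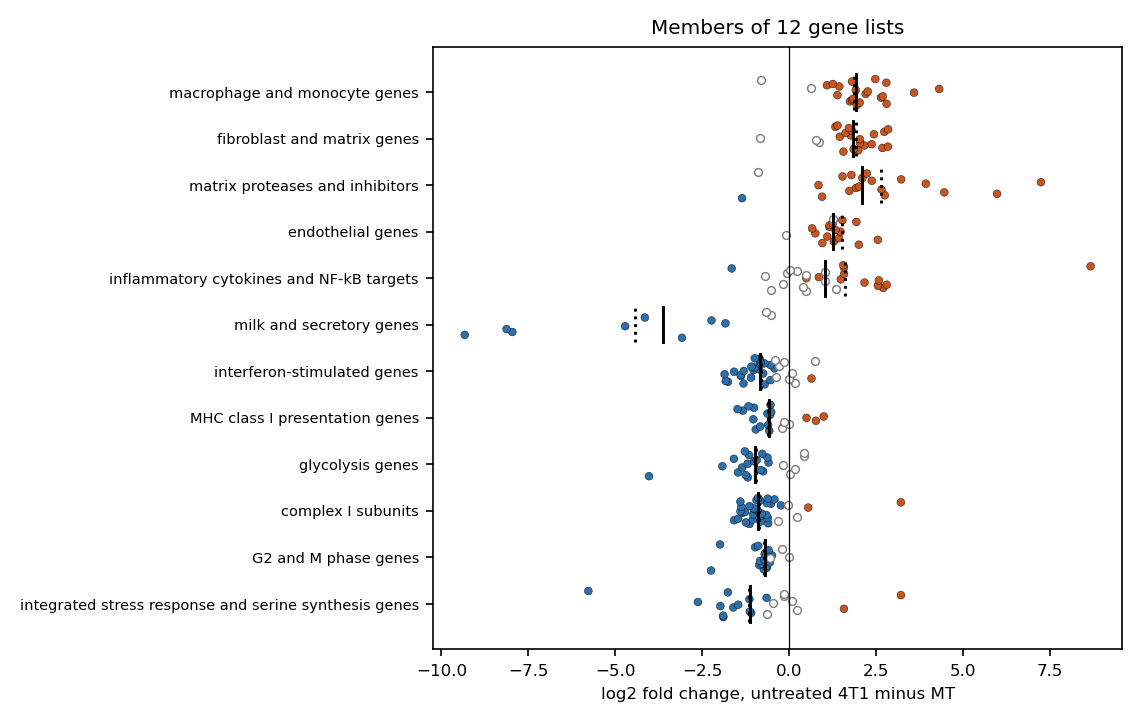
Log2 fold change, untreated 4T1 minus MT, of every tested member of 12 gene lists, with filled points for members called at an adjusted p under 0.05 and open points for the rest. Solid ticks mark the median of each list and dotted ticks its median without MT replicate 4; the macrophage median is 1.93 and the complex I median -0.88, and the fitted values of genes near 0 in 1 model, as in the milk list, are no exact folds.

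Interferons induce a shared set of genes, type I and III interferons through the ISRE promoter motif and interferon gamma through the GAS motif. Interferon-stimulated genes were higher in untreated MT tumours. Of 32 tested, 23 were higher in MT and 1, Ifi44, in 4T1, with a median of -0.83 (23 and 4 without MT replicate 4). In the fit of all 31 libraries, which takes its spread from all groups, 12 were higher in MT and 1 in 4T1. The members with the smallest p were guanylate-binding and immunity-related GTPases. Igtp (ENSMUSG00000078853) measured 227, 188, 241 and 216 CPM in 4T1 and 897, 705, 828 and 724 CPM in MT (log2 fold change -1.86 ± 0.13 SE, adjusted p = 1.46e-05). Gbp3 (ENSMUSG00000028268) measured 155, 145, 169 and 157 CPM in 4T1 and 686, 554, 551 and 428 CPM in MT (log2 fold change -1.82 ± 0.15 SE, adjusted p = 3.28e-05), and Gbp2 (ENSMUSG00000028270) 389, 295, 367 and 349 CPM in 4T1 and 1378, 1220, 1202 and 939.6 CPM in MT (log2 fold change -1.76 ± 0.15 SE, adjusted p = 3.98e-05). Each of the 3 was higher in every MT library than in any 4T1 library. Ifit1 and Isg15, antiviral effectors, measured 42.7 to 52.9 and 35.6 to 48.96 CPM in 4T1 and 71.3 to 124 and 65.7 to 152 CPM in MT.

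The promoters of these 3 genes are shown because they had the smallest p of the list. Sequences are RefSeq windows of the reference genome (GRCm38.p6, strain C57BL/6J, not the strains of these tumours), from 250 bases before to 50 bases after the transcription start, 5′ to 3′ on the gene's strand. Capitals mark the ISRE pattern (GAAA, any 2 bases, GAAA) or the GAS pattern TTCNNNGAA, each searched on both strands; in Gbp2 and Gbp3 the ISRE pattern lies on the opposite strand, and in Gbp3 2 copies overlap. The windows are chr3:142620413-142620712 (Gbp2), chr3:142559794-142560093 (Gbp3) and chr11:58199306-58199605 (Igtp), all on the plus strand.
Gbp2: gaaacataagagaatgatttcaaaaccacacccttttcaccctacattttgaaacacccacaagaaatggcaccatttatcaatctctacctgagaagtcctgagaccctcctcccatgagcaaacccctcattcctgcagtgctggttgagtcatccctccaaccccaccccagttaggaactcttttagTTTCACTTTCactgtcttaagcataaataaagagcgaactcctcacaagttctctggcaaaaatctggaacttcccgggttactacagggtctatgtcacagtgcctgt
Gbp3: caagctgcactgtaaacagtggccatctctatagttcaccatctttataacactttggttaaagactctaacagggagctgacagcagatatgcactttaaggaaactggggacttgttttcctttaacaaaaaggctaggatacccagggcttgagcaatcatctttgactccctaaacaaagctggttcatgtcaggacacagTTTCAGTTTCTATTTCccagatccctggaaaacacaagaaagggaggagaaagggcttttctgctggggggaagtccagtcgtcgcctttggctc
Igtp: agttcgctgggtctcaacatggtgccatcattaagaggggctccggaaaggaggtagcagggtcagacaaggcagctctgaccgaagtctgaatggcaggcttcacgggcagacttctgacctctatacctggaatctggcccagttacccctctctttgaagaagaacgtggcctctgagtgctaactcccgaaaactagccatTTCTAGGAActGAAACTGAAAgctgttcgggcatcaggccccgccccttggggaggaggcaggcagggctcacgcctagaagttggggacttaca
In Igtp the first block of capitals is the GAS pattern and the other the ISRE pattern. Another listed window of Gbp3 held no copy of either. Of the 24 interferon-stimulated genes with a window, 15 held the ISRE pattern in at least 1 window (62.5%), against 3.99% of all 27025 genes. The GAS pattern was in 4 of the 24 (16.7%), against 9.55% of all genes. A match is a description of letters and shows no binding. The 24 genes were taken from the whole list, not only from the members higher in MT. Their shares therefore do not bear on the difference between the models.

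Cxcl9, an interferon gamma-induced chemokine (ENSMUSG00000029417, chromosome 5, 92321347 to 92328079, minus strand), measured 147, 154, 236 and 129 CPM in 4T1 and 772, 556, 624 and 1104 CPM in MT (log2 fold change -2.20 ± 0.27 SE, adjusted p = 0.000241), and its window held no copy of either pattern. MHC class I genes and their peptide supply were higher in MT for 13 of 19 members and in 4T1 for 3 (H2-Q6, H2-T22 and H2-T23), with a median of -0.57. The immunoproteasome subunit gene Psmb9 measured 96.03, 86.3, 102 and 144 CPM in 4T1 and 288, 307, 294 and 308 CPM in MT (log2 fold change -1.48 ± 0.16 SE, adjusted p = 0.000119) and Psmb8 272 to 376 against 626 to 857 CPM. B2m, the light chain of class I, measured 2748 to 2926 CPM in 4T1 and 3899 to 4412 CPM in MT. H2 genes are near-identical to each other and polymorphic, and reads of BALB/c and FVB mice were counted on the C57BL/6 reference, so single H2 values are uncertain. The same reference was used for all genes. The part of strain differences in other single values, among them those of Gbp2, Gbp3 and Igtp, was not tested. Of 13 class II genes, 4 were higher in 4T1 and 0 in MT (8 and 0 without MT replicate 4), among them H2-Ea-ps and H2-Eb1, at 554 to 923 against 20.3 to 60.6 CPM, whose host strains differ as described above. H2-Aa, Cd74 and the class II regulator Ciita did not pass the test.

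Genes that sense double-stranded RNA, the target of poly I:C, differed without a common direction in these untreated tumours, with 8 of 22 higher in 4T1 and 5 in MT (median 0.09). These counts were 8 and 6 without MT replicate 4, and 8 and 3 in the fit of all 31 libraries. Tlr3, the endosomal receptor of poly I:C (ENSMUSG00000031639, chromosome 8, 45395665 to 45411080, minus strand), measured 78.04, 86.1, 77.5 and 77.5 CPM in 4T1 and 95.1, 78, 83.5 and 69.3 CPM in MT, did not pass the test (log2 fold change -0.03 ± 0.11 SE, adjusted p = 0.83), and overlapped between the models. The cytosolic sensors Ddx58 and Dhx58 were higher in MT, and Ifih1 did not pass. Casp8, a protease of cell death signalling, was higher in 4T1, at 111 to 123 against 44.3 to 54.9 CPM. Complement genes were higher in 4T1 for 12 of 19 and in MT for 2, Cfb and Cd59a (median 1.25, and 15 and 3 without MT replicate 4). C3ar1, the receptor of C3a on myeloid cells, measured 78.2 to 125 CPM in 4T1 against 12.5 to 22.6 CPM in MT.

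Glycolysis turns glucose to lactate, and hypoxia raises its genes through Hif1a. Complex I passes electrons from NADH into the respiratory chain and is the target of phenformin. Most of the glycolysis and complex I genes tested were higher in MT. Of 22 glycolysis genes, 17 were higher in MT and 0 in 4T1 (median -0.97, and 17 and 1 without MT replicate 4). Tpi1, triosephosphate isomerase, measured 369, 347, 305 and 369 CPM in 4T1 and 832, 898, 852 and 778 CPM in MT (log2 fold change -1.27 ± 0.11 SE, adjusted p = 3.78e-05), and the aldolase gene Aldoa 681, 648, 597 and 680.2 CPM in 4T1 and 1354, 1518, 1384 and 1683 CPM in MT (log2 fold change -1.19 ± 0.11 SE, adjusted p = 7.57e-05). Ldha measured 543 to 668 CPM in 4T1 and 1325 to 1901 CPM in MT. Gapdh has many processed pseudogenes and was counted at no more than 11.4 CPM in any library, so its call is uncertain. Of 21 hypoxia-responsive genes, 15 were higher in MT and 2, Car9 and Angptl4, in 4T1, with a median of -0.63 (15 and 4 without MT replicate 4, and 8 and 3 in the fit of all 31 libraries). Bnip3, a mitophagy receptor, measured 68.5, 79.95, 71.3 and 55.5 CPM in 4T1 and 183, 171, 182 and 199.8 CPM in MT (log2 fold change -1.42 ± 0.12 SE, adjusted p = 4.28e-05), and the angiogenic growth factor gene Vegfa 76.5 to 124 CPM in 4T1 and 193 to 306 CPM in MT.

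Of 36 nuclear-encoded complex I subunits, 31 were higher in MT and 2 in 4T1, with a median of -0.88 that was -0.86 without MT replicate 4. Ndufa5 (ENSMUSG00000023089, chromosome 6, 24518666 to 24528013, minus strand) measured 26.1, 25.8, 25.8 and 31.7 CPM in 4T1 and 74.7, 77.4, 72.6 and 77.4 CPM in MT (log2 fold change -1.47 ± 0.10 SE, adjusted p = 1.36e-05), and Ndufb3 38.1, 40.4, 36.8 and 38.5 CPM in 4T1 and 93.95, 105, 87.9 and 83.9 CPM in MT (log2 fold change -1.27 ± 0.10 SE, adjusted p = 2.31e-05). The libraries of a model lay close together for both genes. The 2 exceptions were Ndufb9, at 142 to 171 CPM in 4T1 and 101 to 113 CPM in MT, and Ndufs5, at 7.20 to 10.3 and 0.564 to 1.35 CPM. The part of strain differences from the reference in the low level of Ndufs5 was not tested. Ndufa7 and Ndufa13 were among those that did not pass the test. The mitochondrially encoded genes mt-Co2, mt-Co3, mt-Atp6 and mt-Atp8 were not tested. Of 9 mitochondrially encoded protein genes tested, 7 were higher in MT and 0 in 4T1 (median -0.94), 8 and 0 without MT replicate 4, and 3 and 0 in the fit of all 31 libraries. The share of all counts on mitochondrial genes was 0.951% to 1.79% in the 4T1 libraries and 1.33% to 2.91% in the MT libraries, and its part in this result was not tested. mt-Nd1, a complex I subunit, measured 1465, 2215, 1290 and 1550 CPM in 4T1 and 3558, 2087, 4439 and 3548 CPM in MT, where MT replicate 2 lay within the 4T1 range (log2 fold change -1.06 ± 0.26 SE, adjusted p = 0.00744).

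The kinase AMPK responds to low ATP, and organic cation transporters carry biguanides into cells. Slc22a3, an organic cation transporter gene, measured 0.311, 0.845, 1.80 and 1.35 CPM in 4T1 and 0.217, 0.161, 0.269 and 1.64 CPM in MT and did not pass (log2 fold change 0.96 ± 0.79 SE, adjusted p = 0.33), but was higher in 4T1 without MT replicate 4 (log2 fold change 2.27, adjusted p = 0.00879). The AMPK catalytic subunits lay in opposite directions, Prkaa2 at 0.207, 0.317, 0.514 and 0.410 CPM in 4T1 and 24.1, 5.72, 5.86 and 16.3 CPM in MT (log2 fold change -5.14 ± 0.60 SE, adjusted p = 0.000198) and Prkaa1 at 92.5 to 119 against 59.3 to 61.2 CPM (log2 fold change 0.77 ± 0.09 SE, adjusted p = 0.000255). Of 10 genes of this list tested, 4 were higher in MT and 2 in 4T1 (5 and 4 without MT replicate 4).

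Genes of the integrated stress response and serine synthesis were higher in MT for 12 of 20 and in 4T1 for 2, Slc7a11 and Cth, with a median of -1.11 (13 and 2 without MT replicate 4). Psat1, an aminotransferase of serine synthesis (ENSMUSG00000024640, chromosome 19, 15904678 to 15947337, minus strand), measured 56.9, 59.4, 55.3 and 69.6 CPM in 4T1 and 357, 459.9, 403 and 266 CPM in MT (log2 fold change -2.62 ± 0.18 SE, adjusted p = 1.38e-05). Atf4, the central transcription factor, measured 129.9 to 158 CPM in 4T1 and 293 to 378 CPM in MT. Vldlr, a lipoprotein receptor, measured 5.65, 2.38, 5.55 and 3.93 CPM in 4T1 and 313, 256, 247 and 146 CPM in MT (log2 fold change -5.78 ± 0.36 SE, adjusted p = 8.91e-06). The cystine transporter gene Slc7a11 measured 62.8 to 101 CPM in 4T1 and 5.24 to 18.4 CPM in MT. Of 22 cholesterol synthesis genes, 13 were higher in MT and 0 in 4T1 (median -0.61, and 16 and 0 without MT replicate 4), with Mvd at 7.88, 7.19, 7.55 and 10.3 CPM in 4T1 and 36.7, 47.5, 38.6 and 14.3 CPM in MT (log2 fold change -2.06 ± 0.33 SE, adjusted p = 0.00102). Of 17 fatty acid genes, 7 were higher in MT and 2, Acacb and Cpt1a, in 4T1 (13 and 3 without MT replicate 4). Me1, malic enzyme, measured 31.4, 30.9, 29.3 and 32.1 CPM in 4T1 and 344, 275, 305 and 96.9 CPM in MT, and Cpt1a, which brings fatty acids into mitochondria for oxidation, 146, 141, 161 and 113 CPM in 4T1 and 39.7, 31.1, 34.9 and 52.97 CPM in MT (log2 fold changes -3.05 and 1.82, adjusted p = 0.000176 and 9.2e-05). Nqo1, a quinone reductase and target of the antioxidant factor Nrf2 (ENSMUSG00000003849, chromosome 8, 107388225 to 107403206, minus strand), measured 3.63, 3.91, 3.54 and 3.69 CPM in 4T1 and 48.9, 40.3, 48.6 and 51.8 CPM in MT (log2 fold change -3.68 ± 0.13 SE, adjusted p = 1.05e-06). Over the 20 glutathione and oxidative stress genes, 6 were higher in MT and 3 in 4T1. The count in MT was 8 without MT replicate 4, and the count in 4T1 was 6 there, 5 in the fit of all 31 libraries and 1 without 4T1 replicate 3 or without MT replicate 1, 2 or 3.

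Sex chromosome genes showed no male signal, since the Y-linked genes Ddx3y, Uty, Kdm5d and Eif2s3y had at most 1 count in any of the 8 libraries. Xist, the RNA that silences 1 X chromosome in female cells, measured 75.9, 132, 105 and 66.2 CPM in 4T1 and 320.1, 171, 149.6 and 307 CPM in MT and was higher in MT (log2 fold change -1.32 ± 0.31 SE, adjusted p = 0.00683).

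The same contrast was then read in the treated arms, in a fit of all 31 libraries. Of 18956 genes, 8287 were called between the models under phenformin (43.7%), 7812 under poly I:C (41.2%) and 9890 under the combination (52.2%), against 9829 untreated in the same fit (51.9%). The shares higher in 4T1 and in MT were 23.2% and 20.5% under phenformin, 22.4% and 18.8% under poly I:C, 25.7% and 26.5% under the combination, and 26.7% and 25.2% untreated. Of the 8884 genes called untreated, 70.2% were called in the same direction under phenformin, 54.6% under poly I:C and 65.1% under the combination, and 0.12%, 2% and 1.1% in the opposite direction. In all 4 arms and 1 direction, 4037 genes were called (24.1%), 2306 higher in 4T1 (13.8%) and 1731 higher in MT (10.3%). The 20 genes with the largest untreated differences were all among them. None of the 20 overlapped between the 15 4T1 and the 16 MT libraries. The untreated libraries are among these, and the 20 were chosen for large differences and no overlap in them. Part of the calls and of the separation of the 20 was thus fixed by this choice, and the shares of all genes are no reference for them. Of all genes, 2537 showed such a separation (15.1%), 1669 higher in 4T1 (9.96%) and 868 higher in MT (5.18%). Msln measured 84.4 to 107, 95.1 to 128 and 85.8 to 112 CPM in 4T1 under phenformin, poly I:C and the combination, and at most 0.404 CPM in any MT library. Complex I subunits kept 21 of 36 higher in MT and 2 higher in 4T1 in all 4 arms, and matrix proteases 13 of 19 higher in 4T1 and 1 higher in MT.

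Whether a difference between the models itself changed with treatment was tested for each gene, by the interaction with the untreated contrast. Of the 18956 genes, it passed for 11.1% under poly I:C (5.42% towards MT and 5.7% towards 4T1) and 4.56% under the combination (2.29% and 2.26%). Under phenformin it passed for 0 genes in edgeR (0.0% in each direction), with 1394 at an unadjusted p under 0.05, and no other tool was run on it. Call counts of some lists differed between the arms, and no test of a list's difference between arms was made. Of 15 skeletal muscle genes, 10, 9 and 13 were higher in 4T1 under phenformin, poly I:C and the combination. In MT 0, 1 and 0 were higher, against 2 in 4T1 and 0 in MT untreated. Of 21 T cell genes, 0, 4 and 19 were higher in MT in these arms and 0 in 4T1. Untreated, 0 were higher in MT and 1 in 4T1. Under poly I:C, 3 macrophage genes were higher in 4T1 and 7 in MT (median -0.50), and under the combination 10 and 2 (median 0.58), against 17 and 0 under phenformin (median 1.73). Csf1r measured 113 to 196 CPM in 4T1 and 156 to 236 CPM in MT under poly I:C, so the models overlapped there. Its log2 difference, 4T1 minus MT, moved towards MT from the untreated one (interaction -2.72, adjusted p = 1.54e-05 in edgeR). The differences of Entpd1, Cx3cr1 and Eng also moved towards MT under poly I:C (interaction -2.16, -2.23 and -1.63, adjusted p = 2.83e-05, 0.015 and 0.00072). H2-Ea-ps and H2-Eb1 were closer between the models (interaction -2.79 and -2.46, adjusted p = 0.00455 and 0.00306), and remained higher in every 4T1 library. Of the 20 G2 and M phase genes, 0 were higher in MT and 1 in 4T1 under poly I:C, 1 and 1 under the combination and 6 and 0 under phenformin, against 15 and 0 untreated in the same edgeR fit. The difference of Ube2c lessened (interaction 1.87 under poly I:C and 1.95 under the combination, adjusted p = 0.00185 and 0.0053). Ngp passed from higher in 4T1 to higher in MT, at 6.62 to 12.95 CPM in 4T1 and 19.5 to 52.1 CPM in MT under poly I:C (interaction -5.11, adjusted p = 0.00146). Igtp lay higher in MT by similar values in every arm (log2 fold changes between models -1.68, -1.92 and -1.77 under phenformin, poly I:C and the combination, with adjusted p of the interaction no lower than 0.884).

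Krt5 and Sox10, for which MT replicate 4 stood apart untreated, varied among the MT libraries under phenformin. Krt5 ran from 33.4 to 1611 CPM in MT under phenformin, from 1311 to 2452 CPM under poly I:C and from 330.0 to 2102 CPM under the combination. Sox10 ran from 2.59 to 195 CPM in MT under phenformin, from 0.826 to 2.25 CPM under poly I:C and from 0.671 to 3.06 CPM under the combination. Its levels in the last 2 arms were low in every MT library, like MT replicate 4 untreated, and the difference between the models gave an adjusted p over 0.05 in both (adjusted p = 0.629 and 0.227). The part of these MT levels in the arm comparisons was not tested.

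**Figure D4:**
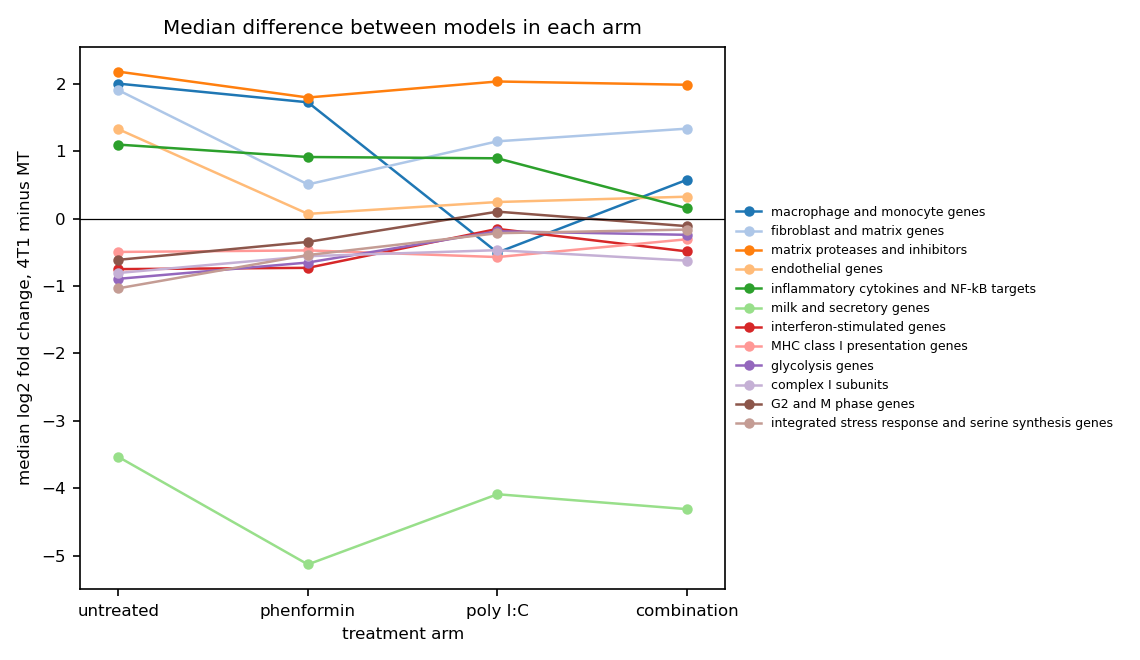
Median log2 fold change, 4T1 minus MT, of 12 gene lists in the 4 treatment arms, all from the fit of the 31 libraries; lines join the medians of 1 list and stand for no time course. The macrophage list goes from above 2 untreated to -0.50 under poly I:C, whereas the matrix protease list stays between 1.80 and 2.18 and the complex I list between -0.81 and -0.47.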

How the data were processed

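RNA was measured in 31 libraries of 8 groups by strand-specific polyA sequencing, per the labels' protocols, with RNA from cell pellets or frozen tissue. The authors deposited 1 table of raw read counts per gene (39017 genes, 8371 of them at 0 in all libraries). The submitters' processing notes name Trimmomatic 0.32.48, STAR 2.3.0, featureCounts 1.4.4 and the mm10 build, and the strand setting and annotation release are not given in the sources used here.

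The counts of the 8 untreated libraries were tested with edgeR 4.0.16 (R 4.3.3), by quasi-likelihood F-tests of 4T1 minus MT after filterByExpr (minimum count 10, minimum total 15) and TMM scaling. Calls are at a Benjamini-Hochberg adjusted p under 0.05, and glmTreat tested differences beyond 2-fold. CPM uses TMM-scaled totals, and SE is the log2 fold change divided by the root of F. The treated arms, and each arm's difference from the untreated contrast, came from 1 fit of 31 libraries. Alternatives were DESeq2 1.42.0, its size factors, limma 3.58.1 voom with quality weights, other filters, a replicate block and leaving out each library. On simulated counts for 16754 genes of this comparison, the test recovered 36% of 100 genes changed 2-fold and 99% of 100 changed 4-fold, with 7 unchanged genes called. No other genes were changed there, all genes were given the same spread, and no library stood apart. In the real libraries 53.0% of genes were called and MT replicate 4 stood apart, so these shares are not the recovery of the real comparison. Counting intervals of ratios are exact 95% intervals and cover counting error only.

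Gene positions are from GENCODE M21 (GRCm38), which held 37693 of the identifiers. The lists and members were chosen with earlier results of these data known. Genes named are, first, the 10 with the largest fitted difference in each direction among those past 2-fold whose libraries did not overlap, leaving out unnamed gene models and a mean log2 CPM under 3, then the 3 members of each list with the smallest p, and 27 set by name. Other list members given with values were chosen after their values were seen. Some genes this rule names are not reported here, though the list counts include them.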

Additional observations from a re-analysis of the deposited data

Results flagged for a closer look

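In 43 of the 338 groups of 4 libraries examined, 1 library lay apart from the other 3 by Dixon's test at the 95% level, which chance alone gives in about 1 group in 20. Of these, 22 were MT replicate 4, 11 4T1 replicate 4, 4 4T1 replicate 1, 3 4T1 replicate 2, 1 4T1 replicate 3 and 2 MT replicate 2. Some of the 43 lay near 0, as in 4T1, where Hapln1 and Adcy8 each had 1 count in all libraries and Cdh19 had 3. All genes were also measured in the same 8 libraries, so 1 in 20 is no exact reference here. MT replicate 4 was the highest of its group for Ccbe1 at 2.13 CPM, Acan at 94.0 CPM, Hapln1 at 58.6 CPM, Krt79 at 156 CPM, Sostdc1 at 165 CPM and Krt5 at 2220 CPM, each set apart from the next library. MT replicate 4 was also the highest of its group for Krt16 at 16.9 CPM, Tnni2 at 4.76 CPM, Thy1 at 77.8 CPM, Lck at 97.4 CPM, Jchain at 111 CPM, Cd79b at 62.0 CPM and Igkc at 310.3 CPM. MT replicate 4 was also the highest of its group for Nt5e at 145 CPM, Csf2rb at 31.04 CPM, H2-Eb1 at 60.6 CPM, Krt14 at 804 CPM, Krt8 at 407 CPM, Vim at 1521 CPM and Slc22a3 at 1.64 CPM. MT replicate 4 was the lowest of its group for Prtn3 at 1.56 CPM and Sod2 at 101 CPM, each set apart from the next library. 4T1 replicate 4 was the highest of its group for Bhlha15 at 0.352 CPM, Sostdc1 at 0.469 CPM, Tyms at 37.9 CPM, Hba-a2 at 6.10 CPM, Foxp3 at 15.8 CPM, Lck at 36.2 CPM and Cd79b at 20.9 CPM, each set apart from the next library. 4T1 replicate 4 was also the highest of its group for Ndufa5 at 31.7 CPM. 4T1 replicate 4 was the lowest of its group for Cdh19 at 0 CPM, Znrf3 at 22.9 CPM and Acod1 at 6.27 CPM, each set apart from the next library. 4T1 replicate 1 was the highest of its group for Hapln1 at 0.0518 CPM, Sfrp1 at 91.6 CPM and Nos2 at 35.0 CPM, each set apart from the next library. 4T1 replicate 1 was the lowest of its group for Prkag1 at 38.9 CPM. 4T1 replicate 2 was the highest of its group for Tmprss11e at 256 CPM, Adcy8 at 0.0528 CPM and Tlr3 at 86.1 CPM, each set apart from the next library. 4T1 replicate 3 was the highest of its group for Alas2 at 4.62 CPM. MT replicate 2 was the highest of its group for Trp53 at 139 CPM. MT replicate 2 was the lowest of its group for Cd274 at 30.9 CPM.

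The difference between the models was itself different from the untreated one for 35 of 255 pairs examined, of 85 named genes with each treated arm (23 under poly I:C, 12 under the combination and 0 under phenformin), by the interaction term of edgeR's fit of 31 libraries with Benjamini-Hochberg adjustment over all genes. Over all 18956 genes the share was 11.1% under poly I:C and 4.56% under the combination, and 0 genes passed under phenformin, where 1394 had an unadjusted p under 0.05. Values are the log2 difference 4T1 minus MT in the arm less the same untreated, with the adjusted p. Under poly I:C, it moved towards MT for Ccbe1 (-1.71, adjusted p = 0.0155), Masp1 (-4.34, adjusted p = 0.000734), Gpa33 (-2.20, adjusted p = 0.0116), Eng (-1.63, adjusted p = 0.00072), Pnpla2 (-1.50, adjusted p = 0.00452) and Ngp (-5.11, adjusted p = 0.00145). Under poly I:C, it further moved towards MT for Cx3cr1 (-2.23, adjusted p = 0.015), Csf1r (-2.72, adjusted p = 1.54e-05), Entpd1 (-2.16, adjusted p = 2.83e-05), H2-Ea-ps (-2.79, adjusted p = 0.00455) and H2-Eb1 (-2.46, adjusted p = 0.00306). Under poly I:C, it further moved towards MT for Cpt1a (-0.83, adjusted p = 0.0479), Nos3 (-1.63, adjusted p = 0.0162) and Cd274 (-1.10, adjusted p = 0.0403). Under poly I:C, it moved towards 4T1 for Bhlha15 (6.02, adjusted p = 0.0197), Ube2c (1.87, adjusted p = 0.00185), Car2 (1.44, adjusted p = 0.0495), Tpi1 (0.96, adjusted p = 0.0342), Bnip3 (1.43, adjusted p = 0.0374) and Ndufa5 (0.53, adjusted p = 0.0392). Under poly I:C, it further moved towards 4T1 for Vldlr (2.39, adjusted p = 0.0275), Sox10 (6.72, adjusted p = 0.00793) and S100a8 (5.72, adjusted p = 0.0169). Under the combination, it moved towards MT for Eng (-1.09, adjusted p = 0.0302), Il1b (-2.73, adjusted p = 0.0302), Ngp (-6.35, adjusted p = 0.00226), Csf1r (-1.82, adjusted p = 0.00244) and Entpd1 (-1.32, adjusted p = 0.00671). Under the combination, it further moved towards MT for H2-Ea-ps (-2.26, adjusted p = 0.0342), H2-Eb1 (-2.08, adjusted p = 0.0232) and S100a9 (-3.85, adjusted p = 0.0232). Under the combination, it moved towards 4T1 for Col9a1 (5.06, adjusted p = 0.0314), Ube2c (1.95, adjusted p = 0.0053), Sox10 (5.80, adjusted p = 0.0414) and Acta1 (7.36, adjusted p = 0.032). No gene named here passed that test under phenformin. The range of Krt5 and Sox10 among the MT libraries of each arm is given above, and its part in these values was not tested.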

How the results depend on the processing

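The untreated count of 8884 calls was 9292 with DESeq2, 8881 with its size factors, 9092 with no filter on low counts, 8551 with a minimum of 1 CPM in 4 libraries, 9829 in the fit of all 31 libraries and 11467 with limma voom. Leaving out 1 library gave 7488 to 11262 calls, 3604 to 5700 of them higher in 4T1 and 3884 to 5562 higher in MT. The 2400 genes past 2-fold became 1981 to 3896, the highest without MT replicate 4. In the treated arms, leaving out 1 library gave 6793 to 8527 calls under phenformin, 6613 to 7521 under poly I:C and 8813 to 9594 under the combination, and fitting the phenformin arm alone, with fewer libraries, gave 5235 in place of 8287.

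Of the values of the named genes under all alternatives, 2517 kept their direction and call, 28 lost the call, 14 gained one and 21 changed sign. The sign changes were all of genes not called with all libraries. Leaving out 1 library, the log2 fold changes ran from -1.87 to 1.07 for Krt16, -2.58 to 0.91 for Jchain, -3.89 to 3.89 for Cd79b, -1.97 to 2.02 for Igkc, -1.99 to 1.44 for Krt14 and -0.209 to 0.461 for Cxcl5, each highest without MT replicate 4. Those of Tlr3 ran from -0.0923 to 0.0509 and those of Acta1 from -0.25 to 0.56. With limma voom, values were 0.56 for Krt16, 1.78 for Cd79b, 0.49 for Igkc, 0.997 for Krt14 and 0.489 for Cxcl5. Cxcl5 was 0.0462 in the fit of 31 libraries and 0.043 with no filter, and Tlr3 0.0454 and 0.0266. The cause was not tested. DESeq2 gave no adjusted p for Acan, Hapln1, Sostdc1 and Krt5, among others.

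Replicate numbers are shared by the groups. The deviations of same-numbered libraries from their group means correlated at 0.092, -0.035, 0.171 and 0.248 for replicates 1 to 4. Pairs with different numbers gave -0.269 to 0.187, so replicate 4 had the highest value of all pairs. These values do not settle whether the numbers pair the libraries, and the main fit treats the libraries as unpaired. With the number as a block, 8653 genes were called and 2267 were past 2-fold, S100a8 (adjusted p = 0.0812) and Cidec (0.0657) lost their calls, and Lck gained one (0.00134). The block gave log2 fold changes of 0.23 for Cd79b, 0.30 for Krt14 and 0.0867 for Cxcl5.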

Other observations

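Growth factor receptors differed one by one between the models. Of 21 receptor tyrosine kinase and ligand genes, 10 were higher in 4T1 and 4 in MT (median log2 fold change 0.74, and 16 and 4 without MT replicate 4). Fgfr1, a fibroblast growth factor receptor, measured 65.8, 43.2, 69.5 and 56.3 CPM in 4T1 and 379.9, 311, 317 and 229 CPM in MT (log2 fold change -2.40 ± 0.20 SE, adjusted p = 3.62e-05), while Fgfr2 was higher in 4T1, at 46.9 to 145 against 7.34 to 47.6 CPM. Kit, the stem cell factor receptor of mast cells and luminal progenitors, measured 21.2, 15.9, 22.3 and 16.2 CPM in 4T1 and 123, 103, 87.5 and 87.96 CPM in MT (log2 fold change -2.41 ± 0.17 SE, adjusted p = 1.57e-05). The growth factor binding protein gene Igfbp5 measured 2843, 1765, 1618 and 109.7 CPM in MT replicates 1 to 4 and 28.9 to 40.8 CPM in 4T1. Igfbp3 lay the other way, at 377 to 539.8 CPM in 4T1 and 155 to 210.3 CPM in MT.

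Of 18 Wnt pathway genes, 8 were higher in 4T1 and 3 (Rnf43, Wif1 and Sfrp1) in MT (median 0.81, and 11 and 4 without MT replicate 4). Sfrp1, a secreted Wnt antagonist, measured 91.6, 57.7, 58.4 and 58.3 CPM in 4T1 and 392, 293, 272 and 316 CPM in MT (log2 fold change -2.26 ± 0.19 SE, adjusted p = 4.04e-05), and Dkk3 36.2, 22.8, 29.6 and 24.6 CPM in 4T1 and 3.97, 5.96, 2.02 and 3.94 CPM in MT (log2 fold change 2.84 ± 0.31 SE, adjusted p = 0.000143). Of 10 mast cell and basophil genes, 4 were higher in 4T1 and 1, Kit, in MT (9 and 1 without MT replicate 4). Mcpt8, the protease of basophils, measured 5.91, 2.69, 2.41 and 3.64 CPM in 4T1 and 0, 0.161, 0 and 0.246 CPM in MT (log2 fold change 5.24 ± 0.74 SE, adjusted p = 0.000516). Krt6a, a keratin of stressed and squamous epithelium that was not tested, measured 0.380, 0.242, 0.404 and 90.8 CPM in MT replicates 1 to 4 and at most 0.104 CPM in 4T1, so that MT replicate 4 alone expressed it plainly.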
